A study of Mus musculus with 16 samples.

Results

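The subject here is the difference between the bone marrow and the spleen in how their CD45+ cells, the cells of the blood lineage, responded to activation of brainstem neurons. All 16 of the 16 libraries of the series entered it, as 4 groups of 4. The hM3Dq groups came from DbhVLM-hM3Dq mice, Dbh-Cre animals given a Cre-dependent AAV on both sides of the ventrolateral medulla (VLM) that carried hM3Dq, a designer receptor, together with mCherry, a red fluorescent protein. The mCherry groups came from DbhVLM-mCherry mice, given a virus with mCherry alone. Dbh is the gene of the enzyme that makes noradrenaline, so Cre marks noradrenergic and adrenergic cells, and the sequenced blood cells are not the cells that the virus was aimed at. All mice were of the C57BL/6J strain and 12 weeks old, and all, controls included, received clozapine N-oxide (CNO), the drug that activates hM3Dq, 4 hours before the cells were taken. Every library is poly(A) RNA measured as FPKM, fragments scaled to exon length and to the library total.

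The comparison asks which genes responded in 1 tissue only and which responded in both. For each gene the response of a tissue is its log2 change, hM3Dq over mCherry, and the difference is the marrow response minus the spleen response. A positive difference therefore means a larger rise, or a smaller fall, in marrow. A gene is called at an adjusted p below 0.05 from limma, with Benjamini-Hochberg adjustment over all 17987 genes tested, and ± after a log2 value is its standard error with 4 libraries per group. By the labels hM3Dq libraries carry numbers 5 to 8 and mCherry libraries 1 to 4 in either tissue. Values are given in that order, and nothing says that each number is a separate mouse, so the spread may be in part technical. FPKM values, and the ratios, sums and gains made from them, are as deposited. The log2 changes use FPKM divided by a factor for library composition (TMM). That factor averaged 0.938 in hM3Dq and 0.889 in mCherry marrow, and 1.109 in hM3Dq and 1.083 in mCherry spleen. Marrow levels relative to spleen are therefore higher on the scale of the fit.

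The gene groups described below have known biology. Glucocorticoids, the adrenal hormones of stress, enter cells and bind the receptor encoded by Nr3c1, which then binds palindromic DNA elements and switches on a shared set of genes in most tissues. Among these are Fkbp5, which restrains the receptor, Tsc22d3 and Nfkbia, which restrain inflammatory transcription, Per1 of the circadian clock, and Ddit4 and Pik3ip1, which brake growth signalling. The same receptor restrains AP-1 and NF-kB genes and can kill lymphocytes through the BH3-only proteins. Cxcr4 is the receptor for Cxcl12, the chemokine that holds and recalls leukocytes to the marrow. Marrow is rich in neutrophils and their precursors, and spleen in B and T cells.

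Short promoter stretches are shown for genes that responded in both tissues and carry a known element, and for Cxcr4, whose response differed. The promoters are RefSeq windows of build GRCm38.p6, from 250 bases before to 50 bases after the gene start. Capitals mark 1 match of the element in each stretch, and the Ifit1 stretch holds a further match in lower case. The first 3 carry the palindromic element of steroid receptors (GNACA, 3 bases of any kind, then TGTNC, with N for any base), Cxcr4 carries the shorter element AGAACA, and the last 3 carry the interferon-stimulated element (GAAA, 2 bases of any kind, then GAAA). Each was searched on both strands, and the shorter element can lie within the palindrome.
Sgk1, chr10:21993679-21993738, plus strand: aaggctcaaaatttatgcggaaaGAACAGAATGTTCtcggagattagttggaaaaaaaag
Txnip, chr3:96557762-96557821, plus strand: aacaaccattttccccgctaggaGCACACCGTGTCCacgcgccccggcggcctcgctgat
Map3k6, chr4:133240614-133240673, plus strand: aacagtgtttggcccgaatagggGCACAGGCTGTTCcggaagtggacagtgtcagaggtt
Cxcr4, chr1:128592452-128592511, minus strand: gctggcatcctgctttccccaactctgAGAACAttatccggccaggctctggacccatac
Ifit1, chr19:34640760-34640819, plus strand: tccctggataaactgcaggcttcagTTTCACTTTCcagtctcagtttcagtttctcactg
Cxcl10, chr5:92349068-92349127, minus strand: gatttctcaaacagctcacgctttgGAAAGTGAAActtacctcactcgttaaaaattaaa
Oas3, chr5:120777700-120777759, minus strand: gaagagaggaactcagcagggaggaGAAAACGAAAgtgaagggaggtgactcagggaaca

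The palindrome stood in 3 of the 223 promoters found for genes called higher in both tissues (1.345%), namely Map3k6, Sgk1 and Txnip, against 0.3979% of the 11058 promoters found for genes tested and 0.5365% of all 27025 promoters. It stood in 0 of the 140 promoters of genes called lower in both tissues and in 0 of the 13 promoters found for genes whose response differed. The shorter element is common, in 15.76% of the promoters of genes tested and 21.28% of all promoters. It stood in 19.73% of those of genes higher in both tissues, in 12.14% of those lower in both, and in 3 of the 13, which belong to Cxcr4, Pde2a and Tank. The interferon element stood in 9 of the 140 promoters of genes lower in both tissues (6.429%), against 4.06% of the promoters of genes tested and 3.993% of all promoters. These matches describe letters within a short window and were not tested.

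The tissues shared 493 called genes, and a difference between them was called for 18. Marrow had 1586 genes called (8.82% of those tested), 981 higher and 605 lower, and spleen had 1390 (7.73%), 661 higher and 729 lower. Called the same way in both were 493 genes (2.74%), 302 higher (1.68%) and 191 lower (1.06%), which is 31.1% of the marrow calls and 35.5% of the spleen calls. The difference between the responses was called for 18 genes (0.10%), 7 above 0 (0.0389%) and 11 below (0.0612%), and 1603 genes had an unadjusted p below 0.05. The within-tissue calls use the spread of all 16 libraries. With a separate fit per tissue marrow had 656 calls, spleen had 1314 and 248 genes were shared. Where composition was not scaled, the marrow calls were 1334 higher and 343 lower, and the spleen calls 647 higher and 569 lower.

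**Figure D1:**
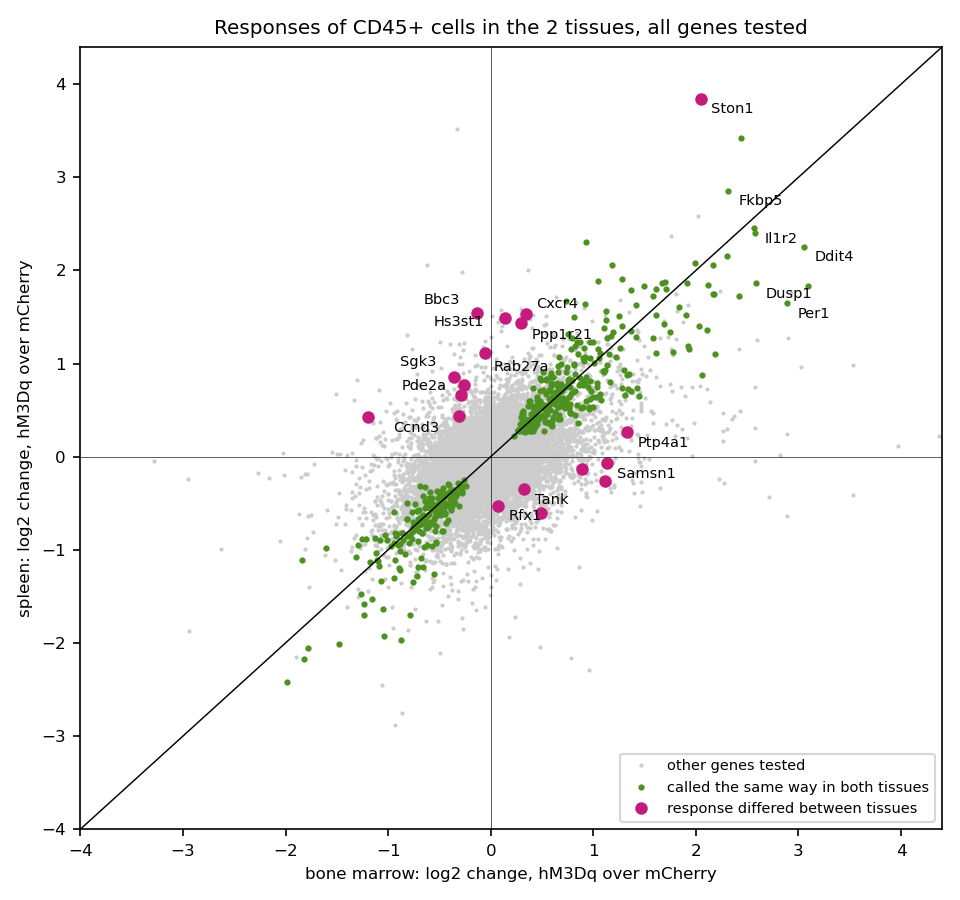
Log2 change in marrow (x axis) and in spleen (y axis), hM3Dq over mCherry, of each gene tested, with the line of equal change. Green genes were called the same way in both tissues without a called difference, and some of them, such as Per1, lie off the line. The magenta genes are those whose response differed, which lie away from the line. The axes leave out 1 gene.

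Over all genes tested the responses had the same sign in 69.6% of genes and a correlation of 0.539, or 0.632 for the 15202 genes with a mean of 10 reads or more in each tissue. This is a description across genes, which are not independent, and the tissues share the annotation, the sequencing and replicate numbers that may be mice. The difference is the least precise of the comparisons. Its 95% interval reached a median of 0.46 to either side on the log2 scale, against 0.33 for either tissue's own response.

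The libraries held 11.34 M to 16.96 M assigned fragments. Marker levels went with the tissue labels: the 24 mature neutrophil genes summed to 42163 to 60924 FPKM in marrow libraries and 1930 to 5401 FPKM in spleen libraries, and the 24 T cell genes to 70.1 to 93.6 FPKM in marrow and 1226 to 1758 FPKM in spleen. Haemoglobin transcripts, of the red cell lineage, took 0.133% to 2.84% of reads and were lowest in library 6 of both hM3Dq groups, at 0.391% in marrow and 0.133% in spleen. The hM3Dq transcript, which the virus brings to neurons, was not analysed here.

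Of the 18 genes with a called difference, Cxcr4, Ppp1r21 and Ston1 were called higher in both tissues, and all 3 rose more in spleen. Coordinates are those of GRCm38 in GENCODE M21. Cxcr4 (ENSMUSG00000045382, chromosome 1, 128588199 to 128592293, minus strand) had 253, 247, 254 and 229.7 FPKM in the hM3Dq marrow libraries, against 159, 185, 212 and 181 FPKM in the mCherry marrow libraries. In spleen it had 164, 209, 168 and 177 FPKM in the hM3Dq libraries, against 55.9, 64.4, 53.0 and 69.4 FPKM in the mCherry libraries. Every hM3Dq library lay above every mCherry library of its tissue. The log2 change was 0.35 ± 0.095 (adjusted p = 0.0356) in marrow and 1.53 ± 0.095 (adjusted p = 3.51e-07) in spleen, a difference of -1.18 ± 0.13 (95% interval -1.47 to -0.90, adjusted p = 0.00237). In hM3Dq mice the marrow mean was 1.37 times the spleen mean, and in mCherry mice 3.04 times, so the gap between the tissues in this homing receptor was narrower in hM3Dq mice. The rise in FPKM was 61.8 in marrow and 119 in spleen. In bulk RNA, a different number of cells of a type and a different amount of RNA per cell cannot be told apart, here and below.

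Ppp1r21, which encodes a protein of the endosome, lies at ENSMUSG00000034709, chromosome 17, 88530118 to 88588367, plus strand. It had 15.0, 14.8, 13.8 and 12.8 FPKM in the hM3Dq marrow libraries, against 10.3, 11.7, 10.3 and 11.02 FPKM in the mCherry marrow libraries. Its spleen values were 26.5, 38.7, 31.6 and 32.2 FPKM in the hM3Dq libraries, against 10.7, 10.8, 12.4 and 11.9 FPKM in the mCherry libraries. The mCherry levels of the tissues were alike, with means of 10.9 ± 0.668 in marrow and 11.5 ± 0.840 FPKM in spleen (SD, n = 4 each), and the spleen hM3Dq libraries stood apart from the rest. Its log2 change was 0.30 ± 0.083 (adjusted p = 0.0395) in marrow and 1.44 ± 0.083 (adjusted p = 1.75e-07) in spleen, and the difference was -1.14 ± 0.12 (95% interval -1.39 to -0.89, adjusted p = 0.00141).

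Ston1, for an adaptor of endocytosis related to stonin, lies on the same strand 9317 bases beyond the end of Ppp1r21 (ENSMUSG00000033855, chromosome 17, 88597684 to 88662586, plus strand). It had 0.408, 0.670, 0.490 and 0.645 FPKM in the hM3Dq marrow libraries, against 0.0556, 0.0778, 0.0529 and 0.0448 FPKM in the mCherry marrow libraries. Spleen FPKM was 3.96, 7.82, 5.42 and 7.77 FPKM in the hM3Dq libraries, against 0.313, 0.379, 0.365 and 0.202 FPKM in the mCherry libraries. On the log2 scale it changed by 2.05 ± 0.22 (adjusted p = 0.000109) in marrow and 3.84 ± 0.22 (adjusted p = 1.75e-07) in spleen, among the largest of either tissue, and the difference was -1.79 ± 0.31 (95% interval -2.45 to -1.14, adjusted p = 0.0370). Its mCherry levels are near the pseudocount of 0.1, so the fold changes are understated, more so in marrow, which makes the difference look larger. Over the other settings tried the difference was -1.98 to -1.20. It was called by limma in 10 of 28 of them, with an adjusted p of up to 0.683. The marrow calls of Cxcr4 and Ppp1r21 are the less secure part of this class: with a separate fit per tissue their adjusted p was 0.0824 and 0.0565, while both spleen calls held.

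Of the 18, those called in spleen alone and higher there were Bbc3, Rab27a, Hs3st1, Pde2a, Sgk3 and the predicted gene Gm45837. Bbc3 encodes PUMA, a BH3-only protein that triggers apoptosis and takes part in the death of lymphocytes exposed to glucocorticoids. Bbc3 (ENSMUSG00000002083, chromosome 7, 16308393 to 16318205, plus strand) had 2.53, 3.06, 3.29 and 4.05 FPKM in the hM3Dq marrow libraries, against 3.08, 3.58, 3.26 and 3.37 FPKM in the mCherry marrow libraries. In spleen were found 17.3, 20.2, 17.5 and 22.1 FPKM in the hM3Dq libraries, against 5.96, 7.79, 6.41 and 5.40 FPKM in the mCherry libraries. The marrow groups overlapped and the spleen groups did not. The log2 change was -0.13 ± 0.15 (adjusted p = 0.617) in marrow and 1.55 ± 0.15 (adjusted p = 3.53e-05) in spleen, with a difference of -1.68 ± 0.21 (95% interval -2.12 to -1.24, adjusted p = 0.00425). The 95% interval of the marrow change was -0.44 to 0.18.

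Rab27a, a small GTPase that docks secretory granules at the plasma membrane (ENSMUSG00000032202, chromosome 9, 73044854 to 73097629, plus strand), had 55.6, 48.8, 43.7 and 42.2 FPKM in the hM3Dq marrow libraries, against 48.1, 46.5, 45.4 and 46.4 FPKM in the mCherry marrow libraries. The spleen samples had 23.7, 31.7, 29.0 and 33.1 FPKM in the hM3Dq libraries, against 13.1, 17.4, 12.4 and 10.3 FPKM in the mCherry libraries. Marrow cells held it at a high level in both groups, and the spleen hM3Dq libraries reached 29.4 FPKM on average, against 13.3 in mCherry spleen. The difference was -1.17 ± 0.20 (95% interval -1.59 to -0.76, adjusted p = 0.0311). A processed pseudogene, Gm27186, overlaps it on the same strand and could share its reads.

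Hs3st1, an enzyme that adds sulfate to heparan chains (ENSMUSG00000051022, chromosome 5, 39613935 to 39755475, minus strand), had 1.39, 1.55, 1.21 and 1.34 FPKM in the hM3Dq marrow libraries, against 1.10, 1.58, 0.893 and 1.21 FPKM in the mCherry marrow libraries. For spleen the values were 8.27, 15.3, 9.90 and 10.9 FPKM in the hM3Dq libraries, against 3.54, 3.52, 3.73 and 3.99 FPKM in the mCherry libraries. The marrow libraries of both groups held 0.893 to 1.58 FPKM and overlapped. Its log2 change was 0.14 ± 0.16 in marrow and 1.49 ± 0.16 in spleen, and the difference was -1.35 ± 0.22 (95% interval -1.82 to -0.88, adjusted p = 0.0311). Library 6 was the highest of the spleen hM3Dq group in Hs3st1, as it was in Ppp1r21, Cxcr4, Ston1, Pde2a and Sgk3.

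Pde2a, a phosphodiesterase that breaks down cyclic nucleotides (ENSMUSG00000110195, chromosome 7, 101421691 to 101512827, plus strand), had 44.7, 38.0, 35.4 and 32.3 FPKM in the hM3Dq marrow libraries, against 41.7, 41.9, 47.3 and 39.4 FPKM in the mCherry marrow libraries. In spleen it had 29.6, 42.7, 31.0 and 37.1 FPKM in the hM3Dq libraries, against 17.8, 23.4, 20.2 and 18.6 FPKM in the mCherry libraries. In marrow 3 of 4 hM3Dq values lay below every mCherry value, and the spleen groups were apart. The marrow log2 change was -0.26 ± 0.12 (adjusted p = 0.183). The difference was -1.03 ± 0.17 (95% interval -1.39 to -0.67, adjusted p = 0.0311). Gm45837 overlaps Pde2a on the same strand, its difference was -0.95 ± 0.16, and the counting could split reads between them, so the pair may be a single observation.

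Sgk3, a kinase of the serum and glucocorticoid regulated family that acts downstream of PI3-kinase (ENSMUSG00000025915, chromosome 1, 9798107 to 9900845, plus strand), had 6.14, 4.78, 4.71 and 4.96 FPKM in the hM3Dq marrow libraries, against 6.41, 6.98, 5.20 and 6.54 FPKM in the mCherry marrow libraries. Its spleen values were 5.13, 10.1, 6.66 and 6.96 FPKM in the hM3Dq libraries, against 3.68, 3.16, 3.74 and 4.404 FPKM in the mCherry libraries. The difference was -1.22 ± 0.21 (95% interval -1.67 to -0.77, adjusted p = 0.0405). Its relative Sgk1, a textbook glucocorticoid target, was called higher in both tissues, with log2 changes of 0.32 ± 0.091 in marrow and 0.46 ± 0.091 in spleen and a difference of -0.15 ± 0.13 (95% interval -0.42 to 0.13). With a separate fit per tissue its marrow call was lost (adjusted p = 0.122), and it held in 12 of 28 other settings.

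Rfx1, a winged-helix transcription factor (ENSMUSG00000031706, chromosome 8, 84066834 to 84096992, plus strand), was the 1 gene of the 18 called lower in spleen alone. It had 5.23, 5.52, 4.84 and 5.17 FPKM in the hM3Dq marrow libraries, against 4.66, 4.47, 5.11 and 4.49 FPKM in the mCherry marrow libraries. Spleen FPKM was 6.56, 6.83, 6.53 and 6.20 FPKM in the hM3Dq libraries, against 9.53, 8.75, 8.76 and 9.91 FPKM in the mCherry libraries. The marrow groups overlapped, and the difference was 0.60 ± 0.10 (95% interval 0.38 to 0.81, adjusted p = 0.0311). The antisense transcript C330011M18Rik overlaps Rfx1 on the other strand, and it too had a called difference, 1.09 ± 0.18. The strand setting of the counting is not given in the sources used here, so reads of the pair cannot be told apart where they overlap.

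Ptp4a1 and Samsn1, also of the 18, were called higher in marrow alone. Ptp4a1, a tyrosine phosphatase anchored to membranes by prenylation (ENSMUSG00000026064, chromosome 1, 30940302 to 30949309, minus strand), had 11.1, 16.4, 11.7 and 12.0 FPKM in the hM3Dq marrow libraries, against 4.87, 4.24, 4.73 and 5.05 FPKM in the mCherry marrow libraries. In spleen were found 4.59, 4.83, 4.48 and 5.28 FPKM in the hM3Dq libraries, against 3.54, 3.85, 4.03 and 4.14 FPKM in the mCherry libraries. The groups were apart in both tissues. On the log2 scale it changed by 1.33 ± 0.11 (adjusted p = 2.16e-05) in marrow and 0.26 ± 0.11 (adjusted p = 0.175) in spleen, not called there. The difference was 1.07 ± 0.16 (95% interval 0.73 to 1.42, adjusted p = 0.0311). The annotation holds a second entry named Ptp4a1 that overlaps this one, which could share its reads.

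Samsn1, an adaptor that dampens B cell receptor signalling (ENSMUSG00000022876, chromosome 16, 75858793 to 76022281, minus strand), had 30.7, 46.1, 28.7 and 30.8 FPKM in the hM3Dq marrow libraries, against 12.6, 15.8, 14.5 and 14.9 FPKM in the mCherry marrow libraries. The spleen samples had 11.9, 9.45, 10.1 and 10.4 FPKM in the hM3Dq libraries, against 10.5, 12.3, 10.2 and 9.96 FPKM in the mCherry libraries. The marrow groups were apart, with library 6 the highest of its group, and the spleen groups overlapped. The log2 change was 1.13 ± 0.13 (adjusted p = 0.000179) in marrow and -0.068 ± 0.13 in spleen, and the difference was 1.20 ± 0.18 (95% interval 0.81 to 1.59, adjusted p = 0.0311).

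The other genes of the 18 that were called in marrow alone were Pla2g3, Gm13767 and Gm7457. Pla2g3, a secreted phospholipase, had a mean under 10 reads in spleen and a difference of 1.37 ± 0.22. Gm13767, an unprocessed pseudogene, was higher in marrow, with a difference of 1.02 ± 0.17. Gm7457, a processed transcript with under 10 reads on average in marrow, was called lower in marrow, with a difference of -1.62 ± 0.27. Pla2g3 and Gm7457 sit near the pseudocount, and their differences were 0.41 to 1.89 and -2.58 to -0.45 over the other settings.

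Tank and Ccnd3, again of the 18, were called in opposite directions in the tissues. Tank, an adaptor that restrains and relays signals to TBK1 and NF-kB (ENSMUSG00000064289, chromosome 2, 61578585 to 61654171, plus strand), had 11.1, 10.3, 8.01 and 8.94 FPKM in the hM3Dq marrow libraries, against 6.94, 7.28, 6.88 and 7.55 FPKM in the mCherry marrow libraries. For spleen the values were 8.01, 8.30, 7.31 and 7.33 FPKM in the hM3Dq libraries, against 10.2, 9.59, 9.003 and 9.79 FPKM in the mCherry libraries. Neither tissue's groups overlapped. Its log2 change was 0.33 ± 0.076 (adjusted p = 0.0167) in marrow and -0.35 ± 0.076 (adjusted p = 0.0131) in spleen, and the difference was 0.68 ± 0.11 (95% interval 0.45 to 0.90, adjusted p = 0.0311).

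Ccnd3, cyclin D3, which drives G1 progression in lymphocytes and their precursors (ENSMUSG00000034165, chromosome 17, 47505051 to 47599691, plus strand), had 58.9, 50.9, 61.4 and 56.4 FPKM in the hM3Dq marrow libraries, against 64.2, 64.5, 73.9 and 63.9 FPKM in the mCherry marrow libraries. In spleen it had 26.2, 25.9, 26.5 and 25.8 FPKM in the hM3Dq libraries, against 20.3, 17.5, 19.1 and 18.3 FPKM in the mCherry libraries. Again neither tissue's groups overlapped, with hM3Dq below mCherry in marrow and above it in spleen. On the log2 scale it changed by -0.30 ± 0.081 (adjusted p = 0.0319) in marrow and 0.44 ± 0.081 (adjusted p = 0.00525) in spleen, and the difference was -0.74 ± 0.11 (95% interval -0.99 to -0.50, adjusted p = 0.0311). Bysl overlaps Ccnd3 on the opposite strand. Ccnd1, another D cyclin, was called lower in both tissues. Of 37 cell cycle and replication genes, 0 were called higher and 2 lower in marrow, against 2 higher and 2 lower in spleen, and the difference was called for Ccnd3 alone. Over all genes tested 5.45% were called higher and 3.36% lower in marrow, and 3.67% higher and 4.05% lower in spleen. With a separate fit per tissue the marrow calls of Tank (adjusted p = 0.0912) and Ccnd3 (0.115) were lost and the spleen calls held. Where composition was not scaled, the spleen call of Tank (adjusted p = 0.0563) and the marrow call of Ccnd3 (0.0551) were lost. Dck and Themis2 were also called in opposite directions, but their difference was not called. C330011M18Rik, described beside Rfx1, was the fifth gene called both ways. Its marrow call was also lost with a separate fit per tissue (adjusted p = 0.101), and its spleen call held.

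**Figure D2:**
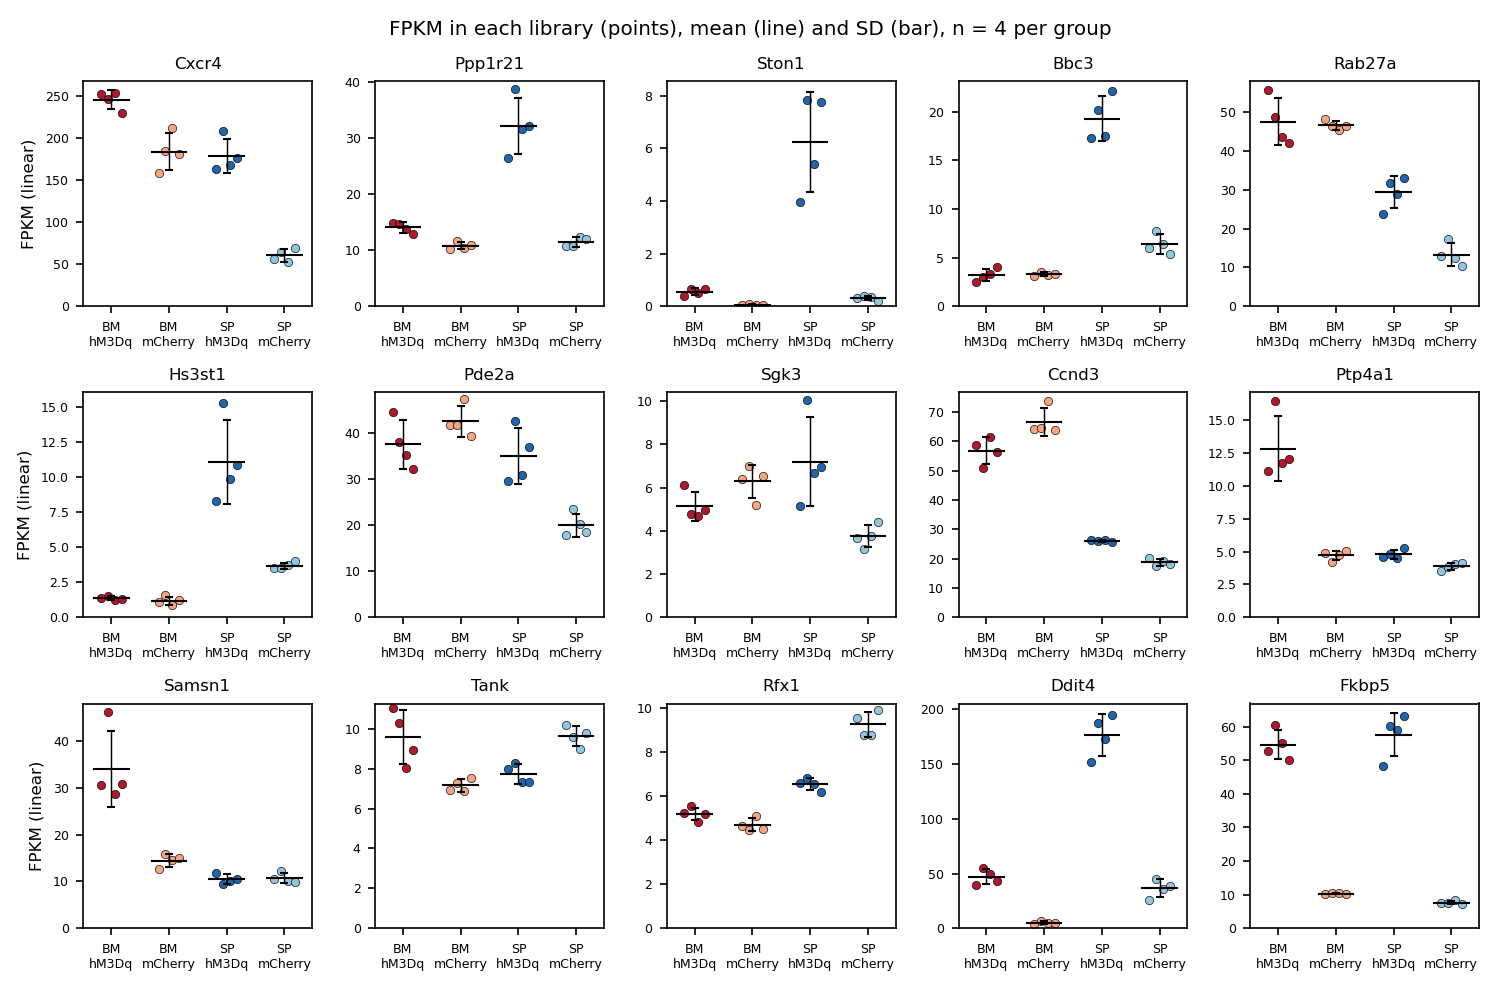
FPKM on a linear axis from 0 in every library for the 13 genes named for a difference and for Ddit4 and Fkbp5, in the order BM hM3Dq, BM mCherry, SP hM3Dq, SP mCherry. Points are libraries, lines means and bars SD of 4 libraries. Cxcr4 and Ppp1r21 rise more in spleen than in marrow, Bbc3 in spleen alone, Ptp4a1 and Samsn1 in marrow alone, and Ccnd3 and Tank move in opposite directions.

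How firmly these 18 genes are placed differs. With the replicate number fitted as a block, 9 genes were called, and 5 of them were among the 18. Ppp1r21, Cxcr4 and Bbc3 were called in 28 of 28 other settings, which include leaving out each of the 16 libraries in turn. The other 13 genes read in both tissues were called in 9 to 17 of 28, Pla2g3 and Gm7457 in 10 of 26, and none of these 15 changed sign. Leaving out 1 library gave between 3 and 36 called genes. Without spleen hM3Dq library 6 or 7, or spleen mCherry library 1 or 4, there were 3 called genes, and without spleen hM3Dq library 8 there were 4. Without marrow mCherry library 3 or spleen hM3Dq library 5 there were 36. Without marrow hM3Dq library 6 or 7 there were 7, and without marrow mCherry library 1, 2 or 4 there were 6, 4 and 5. Without spleen mCherry library 2 or 3 there were 8 and 4. Without both hM3Dq libraries numbered 6 there were 4. With 1 in place of 0.1 added before the log2, 81 genes were called, 53 above 0 and 28 below, so the number depends on the pseudocount.

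A call in 1 tissue alone did not usually mean a shown difference. Of the 1088 genes called in marrow alone, 5 had a called difference and 1083 did not. The sign was the same in spleen for 938 of them (86.2%), and for 751 the 95% interval of the difference lay within 2-fold. Of the 892 genes called in spleen alone, 7 had a called difference and 885 did not, 779 (87.3%) had the same sign in marrow, and 601 lay within 2-fold. Over all genes tested, 72.5% lay within 2-fold by this measure. Genes called in 1 tissue were chosen for a large value there, so a like sign in the other is a description.

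Shared genes are described by whether their difference was bounded within 2-fold. Of the 493 shared genes, 412 (83.6%) had a difference whose 95% interval lay within 2-fold, which is 2.29% of all genes tested, 248 higher and 164 lower. That band is wider than the median shared change, so lying in it does not show responses of equal size. The shared higher genes had a median log2 change of 0.68 in marrow and 0.67 in spleen, and the shared lower genes of -0.61 in marrow and -0.65 in spleen. Changes of 2-fold or more in both tissues were seen in 76 genes, 58 of them higher.

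Fkbp5, the co-chaperone that lowers the affinity of the glucocorticoid receptor for its hormone, rose in both tissues. It had 52.9, 60.4, 55.1 and 50.1 FPKM in the hM3Dq marrow libraries, against 10.1, 10.6, 10.4 and 10.1 FPKM in the mCherry marrow libraries. Its spleen values were 48.4, 60.1, 59.0 and 63.1 FPKM in the hM3Dq libraries, against 7.52, 7.59, 8.30 and 7.22 FPKM in the mCherry libraries. All hM3Dq libraries lay far above all mCherry libraries. The log2 change was 2.31 ± 0.083 (adjusted p = 5.31e-10) in marrow and 2.86 ± 0.083 (adjusted p = 2.45e-11) in spleen, and the difference, -0.54 ± 0.12 (95% interval -0.79 to -0.29, adjusted p = 0.106), was not called over all genes.

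Il1r2, the decoy receptor that binds interleukin-1 without signalling, had 78.9, 162, 119.9 and 113 FPKM in the hM3Dq marrow libraries, against 16.4, 16.4, 23.6 and 17.5 FPKM in the mCherry marrow libraries. Spleen FPKM was 13.9, 21.6, 13.1 and 19.6 FPKM in the hM3Dq libraries, against 3.75, 3.72, 1.88 and 2.63 FPKM in the mCherry libraries. The levels differed between the tissues, with an hM3Dq marrow mean 6.95 times that of hM3Dq spleen, and a difference of the folds was not called: the log2 change was 2.57 ± 0.24 in marrow and 2.45 ± 0.24 in spleen, with a difference of 0.12 ± 0.34 (95% interval -0.61 to 0.85). Pik3ip1, an inhibitor of PI3-kinase, was higher in spleen. It had 9.84, 15.0, 13.2 and 12.7 FPKM in the hM3Dq marrow libraries, against 2.03, 2.68, 3.58 and 2.62 FPKM in the mCherry marrow libraries. In spleen were found 41.5, 57.6, 46.4 and 50.9 FPKM in the hM3Dq libraries, against 11.4, 14.2, 14.5 and 13.03 FPKM in the mCherry libraries. Its difference was 0.28 ± 0.22 (95% interval -0.20 to 0.75).

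Tsc22d3, which encodes the anti-inflammatory leucine zipper GILZ, had 47.4, 53.2, 49.1 and 46.4 FPKM in the hM3Dq marrow libraries, against 9.59, 15.7, 15.7 and 16.9 FPKM in the mCherry marrow libraries. The spleen samples had 92.5, 124, 97.8 and 110.5 FPKM in the hM3Dq libraries, against 21.4, 31.9, 30.5 and 36.4 FPKM in the mCherry libraries. The groups were apart in both tissues, and the difference was -0.093 ± 0.23 (95% interval -0.58 to 0.40). Shared genes were taken by the size of the smaller of their changes, and the other higher ones were Sult1a1, a sulfotransferase, Sytl3, a partner of Rab27 proteins, Crispld2, a secreted protein, Map3k6, a stress kinase, Lifr, the receptor of leukaemia inhibitory factor, and Sema6b, a semaphorin. Their log2 changes were 1.37 to 2.30 in marrow and 1.29 to 2.16 in spleen. Sytl3 rose in both tissues while Rab27a, whose protein it binds, rose in spleen alone.

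Among the shared lower genes, Dynll1, a light chain of dynein, had 10.5, 7.53, 9.92 and 9.30 FPKM in the hM3Dq marrow libraries, against 13.8, 18.1, 18.2 and 17.4 FPKM in the mCherry marrow libraries. For spleen the values were 7.79, 4.69, 7.65 and 5.59 FPKM in the hM3Dq libraries, against 14.7, 13.2, 12.6 and 13.3 FPKM in the mCherry libraries. The groups were apart in both tissues and the difference was 0.18 ± 0.23 (95% interval -0.30 to 0.67). Ccnd1, cyclin D1, had 0.955, 1.84, 2.26 and 1.73 FPKM in the hM3Dq marrow libraries, against 3.50, 4.03, 3.00 and 3.93 FPKM in the mCherry marrow libraries. In spleen it had 1.76, 2.21, 3.38 and 2.31 FPKM in the hM3Dq libraries, against 4.92, 5.50, 5.20 and 5.04 FPKM in the mCherry libraries, with a difference of -0.045 ± 0.32 (95% interval -0.73 to 0.64). Ifit1, an antiviral protein induced by interferon, had 3.89, 3.40, 3.94 and 3.58 FPKM in the hM3Dq marrow libraries, against 4.74, 5.43, 10.1 and 12.8 FPKM in the mCherry marrow libraries. Its spleen values were 4.89, 3.58, 2.98 and 4.12 FPKM in the hM3Dq libraries, against 10.2, 5.79, 7.64 and 10.2 FPKM in the mCherry libraries. The mCherry values of Ifit1 were widely spread in both tissues, but every hM3Dq library lay below them. Kcnrg, Skint3 and Galnt3, an enzyme that starts O-glycans, completed the set. With a separate fit per tissue the marrow calls of Ifit1 (adjusted p = 0.0737) and Kcnrg (0.0777) and the spleen call of Galnt3 (0.0507) were lost. Of the 16 shared genes named by the rule, 15 had groups apart in both tissues, the exception being Skint3 in marrow.

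**Figure D3:**
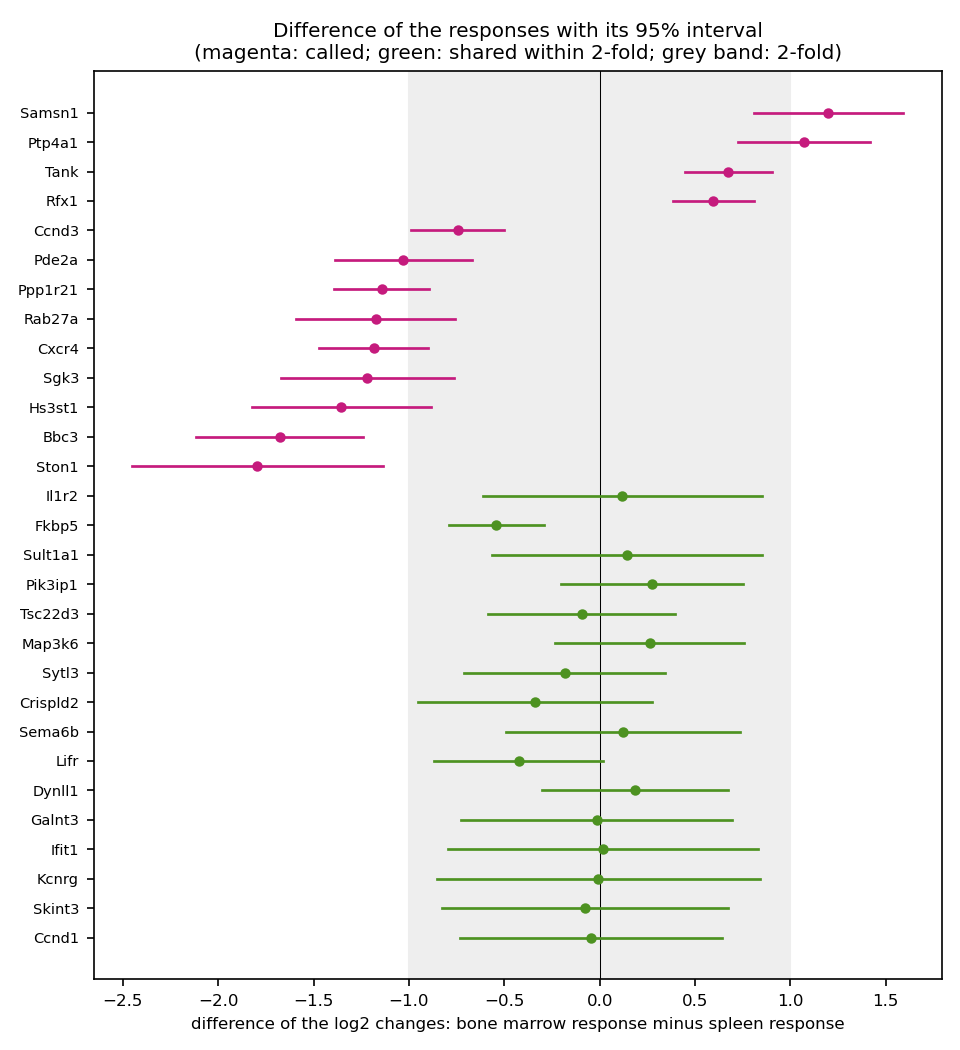
Difference of the log2 changes, marrow response minus spleen response, with its 95% interval, for the 13 genes named for a called difference (magenta) and 16 shared genes (green). The grey band is 2-fold either way. The green intervals lie inside the band by the rule that chose them, and the magenta intervals leave out 0.

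Calls among genes that glucocorticoids induce were mainly higher in both tissues. Of the 29 tested, 18 were called higher in marrow (5.45% of all genes) and 0 lower (3.36%), and 15 higher in spleen (3.67%) and 2 lower (4.05%). Called the same way in both tissues were 14, beside 2.74% of all genes. The median log2 change was 0.75 in marrow and 0.54 in spleen, beside -0.0069 and -0.021 over all genes tested. The difference was called for Cxcr4 alone. Per1, Ddit4, Zbtb16, Dusp1, Klf9, Nfkbia and Cebpb had larger log2 changes in marrow, and Sesn1, Fkbp5 and Txnip in spleen, without a called difference. Nr3c1, the receptor gene itself, was not called in either tissue (0.062 ± 0.099 in marrow and -0.074 ± 0.099 in spleen). This list, like the others, was chosen with earlier results of these data known, so its direction is not independent evidence.

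The tissue with the larger rise depends on the scale for Ddit4. Ddit4, an inhibitor of mTORC1 induced by stress, had 39.6, 54.9, 49.98 and 43.1 FPKM in the hM3Dq marrow libraries, against 4.26, 6.68, 5.11 and 5.17 FPKM in the mCherry marrow libraries. Spleen FPKM was 152, 188, 173 and 195 FPKM in the hM3Dq libraries, against 26.1, 45.4, 36.3 and 38.8 FPKM in the mCherry libraries. Its log2 change was 3.05 ± 0.16 in marrow and 2.25 ± 0.16 in spleen (difference 0.80 ± 0.23, adjusted p = 0.223), but its gain was 41.6 FPKM in marrow and 139.9 FPKM in spleen, where the mCherry level was 6.91 times that of marrow. Of the 302 genes called higher in both tissues, 103 (34.1%) had the larger fold and the larger FPKM gain in different tissues. For the 18 genes with a called difference, 0 had an FPKM difference of the other sign.

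Per1 had 15.9, 37.7, 23.9 and 32.0 FPKM in the hM3Dq marrow libraries, against 2.92, 3.70, 3.284 and 3.16 FPKM in the mCherry marrow libraries. In spleen were found 12.9, 38.5, 17.0 and 26.6 FPKM in the hM3Dq libraries, against 6.52, 7.00, 6.43 and 6.93 FPKM in the mCherry libraries. The hM3Dq libraries were spread widely in both tissues, with library 5 lowest and library 6 highest in each. Its difference was 1.24 ± 0.39 (95% interval 0.40 to 2.08, adjusted p = 0.307), not called. Dusp1, a phosphatase that switches off MAP kinases, had 28.1, 78.5, 49.9 and 55.4 FPKM in the hM3Dq marrow libraries, against 6.16, 7.83, 9.66 and 7.88 FPKM in the mCherry marrow libraries. The spleen samples had 18.4, 41.1, 21.5 and 29.6 FPKM in the hM3Dq libraries, against 6.85, 6.72, 7.02 and 7.47 FPKM in the mCherry libraries, with a difference of 0.72 ± 0.37 that was not called. Zbtb16, the zinc-finger factor PLZF, had 3.46, 3.31, 3.75 and 3.285 FPKM in the hM3Dq marrow libraries, against 0.964, 0.732, 0.407 and 0.881 FPKM in the mCherry marrow libraries. For spleen the values were 2.04, 2.09, 1.96 and 2.16 FPKM in the hM3Dq libraries, against 1.41, 1.03, 0.915 and 0.892 FPKM in the mCherry libraries. Its groups were apart in both tissues, and its difference was 1.18 ± 0.28 (95% interval 0.58 to 1.79, adjusted p = 0.134).

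All calls among genes of glucocorticoid-induced lymphocyte death were higher. Of 14 tested, 4 were called higher in marrow (5.45% of all genes) and 6 in spleen (3.67%), with 3 shared (1.68%). Called lower were 0 in marrow (3.36%) and 0 in spleen (4.05%). The list as a whole did not rise: its median log2 change was -0.014 in marrow and -0.024 in spleen. Below 0 were 7 of 14 in marrow and 8 of 14 in spleen. Bmf, another BH3-only gene, had log2 changes of 1.15 in marrow and 1.10 in spleen, and Trp53inp1, a target of p53, of 0.91 in marrow and 0.79 in spleen, all called. Bcl2l11, which encodes BIM, was called in spleen, with log2 changes of 0.37 in marrow and 1.06 in spleen, as was the protective Bcl2, with 0.25 in marrow and 0.58 in spleen. Mcl1, also protective, was called in marrow, with 0.34 in marrow and -0.19 in spleen. Of these the difference was called for Bbc3 alone, and for Mcl1 it was 0.54 ± 0.11 (adjusted p = 0.0921).

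Brakes on PI3-kinase and mTORC1 were called higher or not at all. Of 17 tested, 4 were called higher in marrow (5.45% of all genes) and 6 in spleen (3.67%). Those in both (1.68%) were 4, Ddit4, Pik3ip1, Tsc22d3 and Deptor, and all but Deptor are also in the glucocorticoid-induced list. Sesn1, a sestrin that restrains mTORC1, had log2 changes of 0.40 in marrow, not called, and 1.38 in spleen, called, with a difference of -0.98 ± 0.18 (adjusted p = 0.0614). Of 18 circadian genes, 4 were called higher in marrow (5.45% of all genes) and 5 in spleen (3.67%), 4 in both (1.68%). Cry2, Tef and Nfil3 had differences of at most 0.20 (that of Tef).

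All 32 interferon-stimulated genes tested had log2 changes below 0 in both tissues, and 7 were called lower in both (1.06% of all genes). In marrow 13 were called lower (3.36%) and in spleen 11 (4.05%), and the median log2 change was -0.62 in marrow and -0.72 in spleen. Their levels summed to 330 to 427 FPKM in hM3Dq marrow and 420 to 722 FPKM in mCherry marrow, which overlap. In spleen the sums were apart, at 366 to 483 FPKM in hM3Dq spleen and 529 to 736 FPKM in mCherry spleen.  The difference was called for 0 of the 32 genes, and 0 reached an unadjusted p below 0.05. An interval within 2-fold was found for 24, beside 72.5% of all genes. Usp18, a brake on interferon signalling, had log2 changes of -1.29 ± 0.23 in marrow and -0.94 ± 0.23 in spleen. Isg15 was called in neither tissue (-1.46 ± 0.48 in marrow and -1.22 ± 0.48 in spleen). In mCherry marrow Usp18 had 4.31, 5.14, 9.31 and 9.29 FPKM and Isg15 34.2, 47.8, 83.0 and 64.5 FPKM. Libraries 3 and 4 were thus the higher ones for both, and the 32 genes are not independent results. Cxcl10, a chemokine that interferon induces, had 0.557, 0.352, 0.400 and 0.170 FPKM in the hM3Dq marrow libraries, against 0.670, 0.656, 2.48 and 2.85 FPKM in the mCherry marrow libraries. In spleen it had 0.341, 0.274, 0.382 and 0.298 FPKM in the hM3Dq libraries, against 4.23, 1.31, 1.34 and 0.979 FPKM in the mCherry libraries. Its mCherry values were uneven and its difference, 0.27 ± 0.69, is not precise (95% interval -1.19 to 1.74). Its marrow call was lost with a separate fit per tissue (adjusted p = 0.0900).

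Calls among chaperone and cholesterol genes were mostly lower. Of 22 heat shock and folding genes, 1 was called higher (5.45% of all genes) and 4 lower (3.36%) in marrow, against 1 higher (3.67%) and 6 lower (4.05%) in spleen. All 22 had a difference within 2-fold, beside 72.5% of all genes. Hsph1 had log2 changes of -0.92 in marrow and -0.86 in spleen, and Hsp90aa1, a chaperone of the glucocorticoid receptor, of -0.36 in marrow and -0.39 in spleen, all called. Of 22 cholesterol synthesis genes, 3 were called lower in marrow (3.36% of all genes) and 7 in spleen (4.05%), with 21 within 2-fold. Ribosomal protein genes (29 tested) and nuclear genes of the respiratory chain (28 tested) had 0 calls by limma in each comparison, 0 had an unadjusted p below 0.05 for the difference, and every one had a difference within 2-fold.

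Immediate early genes, which cells switch on within minutes of a signal, had no called difference. Of 25 tested, 2 were called higher (5.45% of all genes) and 1 lower (3.36%) in marrow, against 1 higher (3.67%) and 5 lower (4.05%) in spleen. The median log2 change was 0.053 in marrow and -0.25 in spleen, and the difference was above 0 for 20 of 25, with a median of 0.44 beside 0.022 over all genes. 8 reached an unadjusted p below 0.05, beside 1603 of the 17987 genes tested, and 0 were called. Fos was called in marrow, with log2 changes of 1.96 in marrow and 0.75 in spleen. Jun was called in spleen, with 0.32 in marrow and -0.60 in spleen, and its difference was 0.92 ± 0.17 (adjusted p = 0.0614). Egr3, an early-response factor abundant in spleen, had 0.781, 0.459, 0.440 and 0.271 FPKM in the hM3Dq marrow libraries, against 1.02, 0.745, 0.619 and 0.858 FPKM in the mCherry marrow libraries. Its spleen values were 8.58, 5.85, 5.92 and 6.26 FPKM in the hM3Dq libraries, against 19.1, 14.2, 17.4 and 15.8 FPKM in the mCherry libraries. It was called lower in both tissues, though the marrow groups overlapped and the marrow call was lost with a separate fit per tissue (adjusted p = 0.144) and held in 9 of 28 other settings.

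NF-kB targets had no called difference. Of 23 tested, 3 were called higher (5.45% of all genes) and 2 lower (3.36%) in marrow, against 1 higher (3.67%) and 8 lower (4.05%) in spleen. A difference within 2-fold was found for 14 of the 23, beside 72.5% of all genes. The difference was above 0 for 18, with a median of 0.31, 9 at an unadjusted p below 0.05 and 0 called by limma. Cd40 and Cd83, called lower in spleen, are also in the mature B cell list, whose sums are given below, and its part in this result was not tested. Nfkbia, the inhibitor of NF-kB, had log2 changes of 1.11 in marrow and 0.26 in spleen, a difference of 0.86 ± 0.20 (adjusted p = 0.133). Cxcl2, a chemokine that draws neutrophils, had 0.535, 10.9, 1.31 and 3.94 FPKM in the hM3Dq marrow libraries, against 0.0304, 0.272, 0.0771 and 0.163 FPKM in the mCherry marrow libraries. Spleen FPKM was 0.112, 1.28, 0.151 and 0.325 FPKM in the hM3Dq libraries, against 0.180, 0.178, 0.0285 and 0.0735 FPKM in the mCherry libraries. It was called in marrow alone, its highest values were in library 6 of both hM3Dq groups, and the interval of its difference was wide (0.33 to 4.77).

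Among receptors of homing and adhesion, Cxcr4 alone had a called difference. Of 31 tested, 2 were called higher (5.45% of all genes) and 1 lower (3.36%) in marrow, against 2 higher (3.67%) and 8 lower (4.05%) in spleen. Most had no call in either tissue, and 24 had a difference within 2-fold, beside 72.5% of all genes. Cxcr5, called lower in spleen, is also a mature B cell marker. Besides Cxcr4, Cd69, which retains lymphocytes in tissue, was called higher in spleen, with log2 changes of 0.31 in marrow and 0.82 in spleen. S1pr1, the receptor through which lymphocytes leave lymphoid organs, had 6.29, 4.62, 4.52 and 4.61 FPKM in the hM3Dq marrow libraries, against 4.79, 6.01, 4.26 and 6.07 FPKM in the mCherry marrow libraries. In spleen were found 65.4, 63.1, 61.6 and 62.1 FPKM in the hM3Dq libraries, against 79.8, 96.3, 89.4 and 84.8 FPKM in the mCherry libraries. The marrow groups overlapped and the spleen groups were apart, and the difference was 0.35 ± 0.16 (adjusted p = 0.541). Ccr2, the receptor for monocyte egress, had log2 changes of -0.44 ± 0.20 in marrow and -0.99 ± 0.20 in spleen, where it was called lower.

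**Figure D4:**
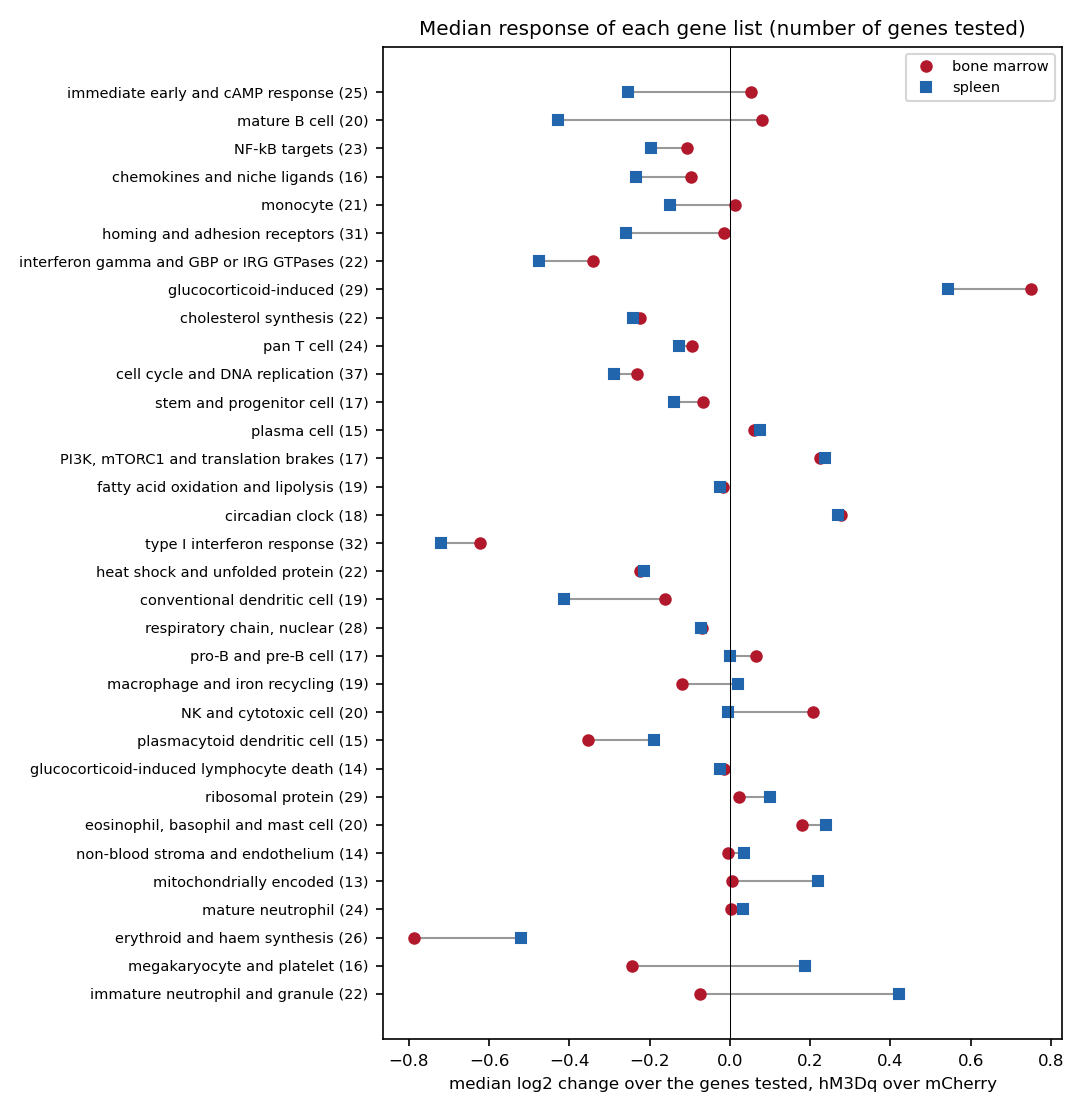
Median log2 change, hM3Dq over mCherry, of the genes tested in each list, in marrow (red circles) and spleen (blue squares), ordered by the median difference. The glucocorticoid-induced list is highest in marrow at 0.75 and the erythroid list lowest at -0.79, while immediate early and mature B cell genes lie above 0 in marrow and below 0 in spleen.

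Markers of cell types moved beside these results, and their part in the result was not tested. Of 20 mature B cell genes, 2 were called higher (5.45% of all genes) and 3 lower (3.36%) in marrow, against 0 higher (3.67%) and 7 lower (4.05%) in spleen. The difference was above 0 for 17 (median 0.34) and called for 0. At an unadjusted p below 0.05 there were 7, beside 1603 of the 17987 genes tested. Their levels summed to 564 to 834 FPKM in hM3Dq marrow and 674 to 1135 FPKM in mCherry marrow. In spleen the sums were 2568 to 3684 FPKM in hM3Dq spleen and 3436 to 4613 FPKM in mCherry spleen, and the groups overlap in both tissues. Ighm moved the mean spleen sum most, by -447 FPKM of -816 FPKM. Without Ighm the spleen sums were apart, at 1709 to 1930 FPKM in hM3Dq spleen and 2046 to 2522 FPKM in mCherry spleen. The marrow sums without Ighm still overlapped. Ms4a1, which encodes CD20, had 8.46, 8.74, 6.69 and 5.70 FPKM in the hM3Dq marrow libraries, against 5.16, 4.86, 6.89 and 8.64 FPKM in the mCherry marrow libraries. The spleen samples had 58.2, 46.8, 53.6 and 45.7 FPKM in the hM3Dq libraries, against 83.1, 78.6, 85.1 and 94.3 FPKM in the mCherry libraries. Its marrow groups overlapped and its spleen groups did not, and the difference was 0.93 ± 0.23 (95% interval 0.43 to 1.42, adjusted p = 0.154). Cr2, the complement receptor of mature B cells, was called lower in both, at -0.71 ± 0.19 in marrow and -1.18 ± 0.19 in spleen, but its marrow groups overlapped and its marrow call was lost with a separate fit per tissue (adjusted p = 0.122).

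Among immature neutrophil genes most differences were below 0. Of 22 genes of immature neutrophils and their granules, 1 was called higher in marrow (5.45% of all genes) and 2 were in spleen (3.67%). The difference was below 0 for 19 (median -0.42), with 2 at an unadjusted p below 0.05 and 0 called. Their levels summed to 20764 to 25616 FPKM in hM3Dq marrow and 20935 to 25261 FPKM in mCherry marrow. In spleen they summed to 1002 to 2281 FPKM in hM3Dq spleen and 769 to 1711 FPKM in mCherry spleen, and the ranges overlap in both tissues. Of 24 mature neutrophil genes, 3 were called higher (5.45% of all genes) and 0 lower (3.36%) in marrow, against 5 higher (3.67%) and 1 lower (4.05%) in spleen. Their spleen sums were 2461 to 5401 FPKM in hM3Dq spleen and 1930 to 4151 FPKM in mCherry spleen, which overlap. All 26 erythroid genes were below 0 in both tissues with 0 called by limma and 0 at an unadjusted p below 0.05. A difference within 2-fold was found for 0 of these 26, beside 72.5% of all genes. Pan T cell genes (24 tested) had 1 call in marrow (8.82% of all genes) and 0 in spleen (7.73%), and 23 had a difference within 2-fold (72.5%). All 13 mitochondrially encoded transcripts had a difference below 0, with a median of -0.23, 3 at an unadjusted p below 0.05 and 0 called, and all were within 2-fold. In no list was any member at 0 in all libraries.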

How the data were processed

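RNA of CD45+ cells from 16 libraries was measured as deposited FPKM, which the authors made from reads with CASAVA 1.9, STAR 2.6.1a, featureCounts and edgeR 3.28.1 on GRCm38, per the submitters' processing notes. Neither the annotation release nor the strand setting is known (not given in the sources used here). Fragments were recovered from the steps of the values: of 31954 genes above 0, 87.4% were whole multiples with GENCODE M21 exon lengths and the others with another length (tolerance 0.01). They set the filter, 10 fragments in at least 4 of 16 libraries. Library depth is given above. FPKM divided by a TMM factor (trims 30% and 5%) was taken as log2(value + 0.1) and fitted with limma 3.58.1 in R 4.3.3 (limma-trend), 1 fit with 4 groups and 3 contrasts, with Benjamini-Hochberg adjustment. Fold changes of low genes are understated on this scale. The code was tested on simulated data. Tables and plots came from pandas 2.3.3, numpy 2.4.6 and matplotlib 3.10.9 under Python 3.11.15.

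Genes were named by rule: up to 12 per direction of the called difference, 10 higher and 6 lower shared genes with the largest smaller change and a difference within 2-fold, a panel of 22, and called members of 34 lists. Gm45837, C330011M18Rik, Gm13767, Dck, Themis2 and the list members given as examples were chosen after their values were seen. The members and lists were chosen with earlier results of these data known. Alternatives covered scaling, pseudocount, filter, voom, robust spread, a haemoglobin covariate, the replicate number, 1 fit per tissue and each library left out.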

Additional observations from a re-analysis of the deposited data

Results flagged for a closer look

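The response differed between the tissues, by a test of the difference itself, for 18 genes. The difference, marrow response minus spleen response on the log2 scale, was above 0 for Ptp4a1 (1.07), Samsn1 (1.20), Tank (0.68), Rfx1 (0.60), Pla2g3 (1.37), C330011M18Rik (1.09) and Gm13767 (1.02). It was below 0 for Ppp1r21 (-1.14), Cxcr4 (-1.18), Bbc3 (-1.68), Ccnd3 (-0.74), Hs3st1 (-1.35), Pde2a (-1.03), Rab27a (-1.17), Ston1 (-1.79), Sgk3 (-1.22), Gm45837 (-0.95) and Gm7457 (-1.62).

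A library stood apart from the other 3 of its group in 13 of 208 groups of 4 examined, which is 6.25%, and chance alone gives about 1 in 20. In hM3Dq marrow, library 6 was high for Ptp4a1 at 16.4 FPKM and for Samsn1 at 46.1 FPKM, and library 5 was high for S1pr1 at 6.29 FPKM. In hM3Dq spleen, library 5 was high for Egr3 at 8.58 FPKM. In mCherry marrow, library 3 was high for Ccnd3 at 73.9 FPKM and Il1r2 at 23.6 FPKM and low for Gm13767 at 3.275 FPKM. Library 1 of that group was low for Tsc22d3 at 9.59 FPKM and Sgk1 at 5.30 FPKM and high for Sema6b at 2.80 FPKM, and library 2 was low for C330011M18Rik at 0.609 FPKM. In mCherry spleen, library 3 was low for Crispld2 at 0.753 FPKM and library 1 high for Cxcl10 at 4.23 FPKM.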

How the results depend on the processing

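The number of genes with a called difference, 18 by limma, depends on the settings: 11 without composition scaling, 46 with a pseudocount of 0.5, 81 with 1, and 29 with voom on recovered reads. Over leaving out each library in turn it was 3 to 36. The calls in marrow were 787 to 1817 and in spleen 668 to 1779, the genes shared 279 to 584, and those shared within 2-fold 231 to 495. A separate fit per tissue gave 656 marrow calls, 1314 spleen calls and 248 shared genes. With no filter on low values 290 genes were shared and 244 within 2-fold. Without both hM3Dq libraries numbered 6, a setting chosen after seeing the data, the difference was called for 4 genes, marrow had 951 calls, spleen 778, shared genes were 267 and those within 2-fold 229. For other shifts the cause was not tested. Same-numbered libraries correlated at 0.0370 to 0.338 in their deviations, 4 of 8 pairs above 0.1. In each tissue 7 of 8 libraries were closest to the library of their own number in the other tissue. Same-numbered libraries may therefore share a mouse, which the labels do not say, and the main fit leaves the number out. With the replicate block 9 genes were called, and 5 of them were among the 18. Over the 52 named genes, 1164 values kept their direction and side of the threshold, 229 lost a call and 4 gained one. The sign changed in 0 values of called differences and in 54 values of 13 genes whose difference was not called. Leaving out 1 library gave log2 differences of Ccnd1 -0.22 to 0.21, Cxcl10 -0.15 to 0.61, Galnt3 -0.18 to 0.17, Ifit1 -0.19 to 0.25, Il1r2 -0.037 to 0.31, Isg15 -0.72 to 0.12, Kcnrg -0.19 to 0.18, Klf1 -1.09 to 0.40, Sema6b -0.027 to 0.30, Skint3 -0.27 to 0.12, Sult1a1 -0.089 to 0.30 and Tsc22d3 -0.26 to 0.066. Without composition scaling it was 0.0043 for Ccnd1, 0.053 for Kcnrg and 0.036 for Galnt3, and with scaling within each tissue 0.0077 for Kcnrg. A pseudocount of 1 gave 0.14 for Crispld2, 0.011 for Ccnd1 and -0.012 for Ifit1, and voom 0.034 for Galnt3. With the haemoglobin covariate Ccnd1 had 5.74e-05, Kcnrg 0.016, Isg15 0.042 and Klf1 0.062, and without both libraries 6 Kcnrg had 0.073. Depth limits low genes: 1 fragment in a gene of 2 kb is 0.0295 to 0.0441 FPKM.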

Other observations

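Of 19 genes of fatty acid oxidation and lipolysis, 2 were called higher (5.45% of all genes) and 2 lower (3.36%) in marrow. In spleen 3 were called higher (3.67%) and 3 lower (4.05%). Called the same way in both were 3, beside 2.74% of all genes, and 17 had a difference within 2-fold, beside 72.5%. Pnpla2, which encodes the lipase that opens triglyceride breakdown, had log2 changes of 0.87 in marrow and 0.84 in spleen, both called higher. Lipe, hormone-sensitive lipase, had 0.45 in marrow and 0.49 in spleen, also called higher in both. Decr1, of fatty acid oxidation, was called lower in both, with -0.50 in marrow and -0.56 in spleen. Mgll, monoglyceride lipase, had -0.76 in marrow and -0.37 in spleen and was not called in either. Of 22 genes of the interferon gamma response, 4 were called lower in marrow (3.36% of all genes) and 4 in spleen (4.05%), 2 of them in both (1.06%). By limma 0 had a called difference or an unadjusted p below 0.05 for it.

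Of 21 monocyte genes, 2 were called higher (5.45% of all genes) and 0 lower (3.36%) in marrow, against 0 higher (3.67%) and 3 lower (4.05%) in spleen. The median log2 change was 0.012 in marrow and -0.15 in spleen, where 17 were below 0. Vcan, which encodes the matrix proteoglycan versican, was called higher in marrow, with log2 changes of 2.90 in marrow and 1.28 in spleen, and its difference was 1.62 ± 0.83 (adjusted p = 0.601) by limma. The summed level of the 21 monocyte genes was 3371 to 5013 FPKM in hM3Dq marrow and 4800 to 5992 FPKM in mCherry marrow, which overlap, and 1042 to 1426 FPKM in hM3Dq spleen and 1321 to 1714 FPKM in mCherry spleen, which overlap too. Lyz2 changed by -1233 FPKM in marrow, more than the -1083 FPKM of the mean marrow sum, and by -176 FPKM of -266 FPKM in spleen. Without Lyz2 the marrow sums were 926 to 1260 FPKM in hM3Dq marrow and 877 to 1141 FPKM in mCherry marrow, and overlapped. Plasmacytoid dendritic cell genes (15 tested) summed to 358 to 449.5 FPKM in hM3Dq marrow and 356 to 487 FPKM in mCherry marrow, overlapping, and to 359 to 409 FPKM in hM3Dq spleen and 511 to 584 FPKM in mCherry spleen, where the groups were apart. Gene by gene, 3 were called lower in marrow (3.36% of all genes) and 2 in spleen (4.05%). The median log2 change was -0.35 in marrow and -0.19 in spleen, so the sums do not show a fall in spleen alone. Ly6d moved the mean spleen sum most, by -88.2 FPKM of -162 FPKM, and without it the spleen groups were still apart. Conventional dendritic cell genes (19 tested) summed to 274 to 322 FPKM in hM3Dq marrow and 277 to 336 FPKM in mCherry marrow, overlapping, and to 427 to 473 FPKM in hM3Dq spleen and 509 to 540.0 FPKM in mCherry spleen, apart. Pro-B and pre-B cell genes (17 tested) summed to 213 to 244 FPKM in hM3Dq marrow and 171 to 255 FPKM in mCherry marrow, overlapping, and to 224 to 263 FPKM in hM3Dq spleen and 159.6 to 188 FPKM in mCherry spleen, apart, with the hM3Dq libraries higher. Il7r, which is also in the glucocorticoid-induced list, gained 67.5 FPKM of the 68.1 FPKM by which the mean spleen sum was higher, and without it the spleen sums overlapped, at 116 to 124 FPKM in hM3Dq spleen and 112 to 123 FPKM in mCherry spleen. The difference was called by limma for 0 genes of these 4 lists, with 5, 5, 1 and 0 at an unadjusted p below 0.05, in the order given. These lists were not tested as sets, and their part in the other results was not tested.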
